A study of Homo sapiens with 16 samples.

Results

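The 41 genes described here encode proteins of the lysosome and their best known regulators. The acid hydrolases number 15, most of which take apart sugars, glycolipids and glycosaminoglycans. CTSA, cathepsin A, is counted among them and not among the 7 proteases. The rest are 6 proteins of lipid breakdown and saposin processing, 5 membrane proteins and 5 subunits of the vacuolar proton pump. The 3 regulators are the transcription factors TFEB, TFE3 and MITF. The genes were taken by symbol from a count table of 33121 entries. The rule itself uses no measured value, but the members were chosen with earlier results of these data known. All 41 have a row, and 40 passed the filter on low counts that left 15569 tested genes. The exception was NEU1, a sialidase, whose row and 7 numbered copies stood at 0 counts in all 16 libraries. A count of 0 allows at most 3 counts, or 0.181 to 0.187 CPM (CPM stands for counts in each 1000000 after library scaling), for counting error only. Whether the numbered copies bear on this 0 was not tested.

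Lysosomes are acidic organelles in which hydrolases digest material from endocytosis and autophagy. The proton pump acidifies them, heavily glycosylated membrane proteins such as LAMP1 and LAMP2 line them, and most of their soluble enzymes reach them with a mannose 6-phosphate tag. TFEB, TFE3 and MITF bind a short palindromic element, the CLEAR element, in the promoters of many lysosomal genes. When nutrient signalling through mTORC1 falls, these factors enter the nucleus.

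RNA was measured in HAP1, a near-haploid human line derived from a chronic myeloid leukaemia line, by poly-A selected, paired-end sequencing. The 16 libraries formed 4 groups of 4. These were cells with a deletion of SLC30A10, which encodes a manganese exporter, the SLC30A10+/+ control cells of that experiment, a second knockout with a deletion of another gene, and the control cells of that second experiment. All groups were grown in the same medium with serum and antibiotics, and the labels give no metal treatment. The labels give 1 cell line identifier for the controls of both experiments, and each deletion carries a single identifier of its own, so an effect of a deletion and a difference between cell lines cannot be told apart. The labels do not say whether the 4 libraries of a group came from separate cultures, so p-values measure only the spread between these samples.

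Library totals lay between 16058856 and 16648151 counts. SLC30A10 itself had 3 to 11 counts in its knockout and 6 to 9 in its control, so the RNA level could not check that label. Of 8 blood cell markers, all stayed under 10 counts in every library, and 2 were at 0 throughout. The 4 macrophage markers also stayed under 10 counts. The summed level of 4 melanocyte markers, a cell type in which MITF is prominent, lay between 1.49 and 2.68 CPM over all libraries, and TYR was at 0. The 5 epithelial markers, mainly KRT18 and KRT8, summed to 56.6 to 64.0 CPM in the SLC30A10 knockout and 47.7 to 55.5 in its control. They summed to 37.0 to 40.3 CPM in the second knockout and 46.5 to 51.5 in its control, so that the groups did not overlap in either experiment, and KRT19 was at 0. Of the 3 tested epithelial markers, 3 were called in the SLC30A10 knockout (2 higher, 1 lower) and 2 in the second (both lower). The 6 fibroblast markers, mainly COL1A1, summed to 33.5 to 44.5 CPM with overlapping groups, and LUM was at 0. THY1 was at a mean of 3.93 CPM in the SLC30A10 knockout against 1.67 in its control, and 3.47 against 0.682 in the second experiment. The part of these markers in the results was not tested.

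Some of these genes share a promoter element. RefSeq promoter windows (assembly GRCh38.p14, from 250 bases before to 50 after the start) were matched by symbol for 32 of the 41 genes, in 42 windows because some genes have several starts. The windows were searched on both strands for CACGTG, for TCACGTG, which contains it, and for TCACGTGA, the core of the CLEAR element, which contains both. TCACGTG was found in 11 of the 42 windows (26.2%), those of 10 genes, against 3.71% of all 35116 windows. CACGTG was found in the same number of windows, against 7.26% of all. The 8-base core was found in 7 windows (16.7%) of 6 genes, GAA, CTSA, LAMP1, MCOLN1, CLN3 and ATP6V0D1, against 0.98% of all. The remaining genes with a TCACGTG match were NEU1, ARSB, CTSD and CTSF. HEXA, ATP6V1A, MANBA, ARSA, SGSH, PSAP, ATP6V1H, LAMP2 and NAGLU had no entry in the table of windows.

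The sequences to show were chosen with the calls in the SLC30A10 knockout known. CTSF, which has a match and rose (0.42, log2), is not shown. Nor are ARSB and CLN3, which have matches and did not pass, and NEU1, which was not tested. Those shown are from the promoters of 5 genes with a match whose RNA fell in that knockout, and of MCOLN1, which did not pass. Each is written 5′ to 3′ on the strand of its gene, with every complete match to TCACGTG or its reverse complement CACGTGA in capitals. The LAMP1 stretch, which covers the 200 bases before the start (chr13:113297039-113297238, plus strand), holds 5 such runs. Those of GAA (chr17:80101496-80101565, plus strand), CTSA (chr20:45891285-45891324, plus strand) and MCOLN1 (chr19:7522574-7522623, plus strand) hold 2 each. Those of ATP6V0D1 (chr16:67481198-67481227, minus strand) and CTSD (chr11:1763958-1763987, minus strand) hold 1 each.
LAMP1: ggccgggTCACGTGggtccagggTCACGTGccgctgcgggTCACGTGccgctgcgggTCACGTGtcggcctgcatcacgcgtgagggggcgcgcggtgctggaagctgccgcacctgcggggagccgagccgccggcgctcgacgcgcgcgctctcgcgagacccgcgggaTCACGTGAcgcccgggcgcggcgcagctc
GAA: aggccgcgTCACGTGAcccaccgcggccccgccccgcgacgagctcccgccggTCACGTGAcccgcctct
CTSA: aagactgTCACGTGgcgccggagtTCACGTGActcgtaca
ATP6V0D1: ccccttatggTCACGTGAggcgcttgcgcg
CTSD: cgccggccgcgccCACGTGAccggtccggg
MCOLN1: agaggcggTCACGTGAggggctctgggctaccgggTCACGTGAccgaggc

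Of the 9 tested genes with TCACGTG in a window, 5 fell and 1 rose in the SLC30A10 knockout. Of the 22 tested genes whose windows lacked it, 8 fell and 8 rose, and 4 of those 8 rises are of the X-linked genes GLA, IDS, TFE3 and ATP6AP1. Over all tested genes 20.2% fell and 21.2% rose, and on the X chromosome 69.5% rose. The median log2 fold change was -0.27 with the motif and 0.02 without it, where only the latter includes the 4 X-linked genes. These are counts of letters and of calls, not a test of binding.

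The first comparison asked which lysosomal genes differ when SLC30A10 is deleted. Many did, and in both directions. Of the 40 tested genes, 25 (62.5%) passed the threshold, an adjusted p under 0.05 (edgeR quasi-likelihood test, Benjamini-Hochberg over all tested genes), against 41.4% of all tested genes. Of these, 11 were higher and 14 lower, where 21.2% of all tested genes were higher and 20.2% lower. A change of at least 1.5-fold was called for 5, against 10.4% of all tested genes. The median log2 fold change of the 40 was 0.00, as it was over all tested genes, and the median absolute value was 0.24 against 0.16. For 23 of the 40 every knockout library lay on 1 side of every control library, against 38.3% of all tested genes. Well-expressed genes passed somewhat more often in this comparison. Among genes with a mean count of at least 500, 20 of 27 lysosomal genes were called (74.1%), against 46.0% of all such genes. In bulk RNA, fewer cells with a transcript and less of it in each cell cannot be told apart.

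**Figure D1:**
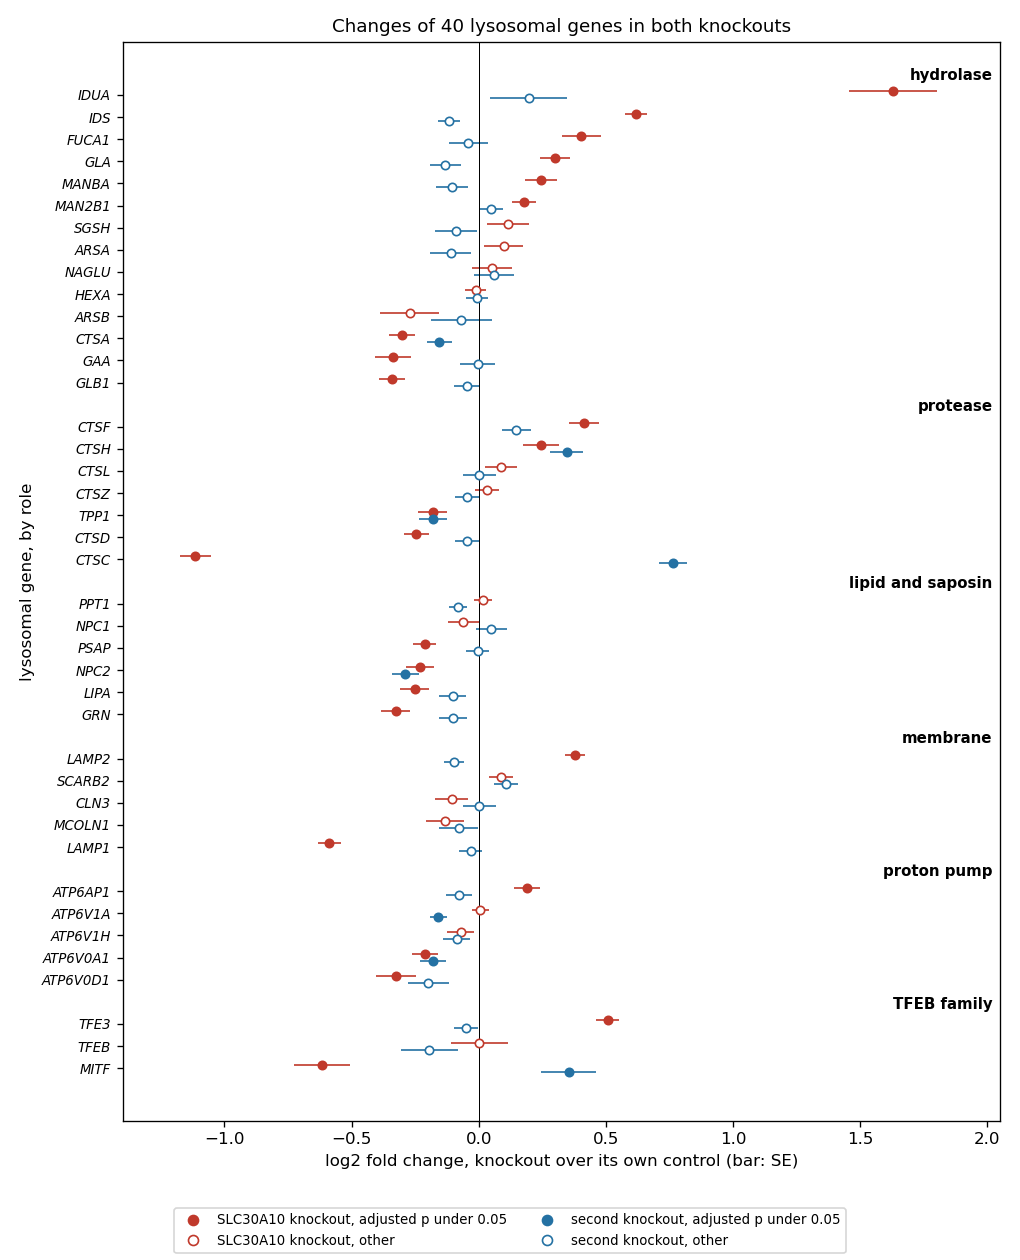
Log2 fold change of each of the 40 tested genes (horizontal axis) for the SLC30A10 knockout (red) and for the second (blue), each over its own control set of 4 libraries, with SE bars, by role. Filled points passed an adjusted p of 0.05, 25 genes for the SLC30A10 knockout and 8 for the other. CTSC and MITF lie on opposite sides of 0.

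Among the proteases, CTSC stood out. It encodes cathepsin C, a dipeptidyl peptidase that activates serine proteases of immune cell granules. Its level was 55.6, 60.6, 59.1 and 58.5 CPM in the SLC30A10 control libraries and 24.7, 25.6, 29.3 and 28.4 CPM in the knockout. Every knockout library lay under every control library, and CTSC was 2.16-fold lower (log2 fold change -1.11 ± 0.06, SE, adjusted p 2.9e-14). The 20 tested genes nearest to CTSC on chromosome 11 had a median log2 fold change of 0.01. CTSD, the main aspartic protease of the lysosome, fell by 0.25 ± 0.05 (log2, SE), and TPP1, a tripeptidyl peptidase, fell by 0.18 ± 0.06, which did not pass without SLC30A10 knockout library 1 (-0.15). Against both control sets pooled TPP1 was at -0.31 (adjusted p 0.00274).

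A different cysteine protease, cathepsin F, moved the other way. CTSF had 27.8, 26.8, 25.8 and 30.1 CPM in the control and 36.9, 37.3, 36.3 and 36.9 CPM in the knockout. The groups did not overlap, and the rise was 0.42 ± 0.06 (log2, SE, adjusted p 2.3e-06), or 0.25 against pooled controls (adjusted p 0.0222). CTSH, an aminopeptidase among the cathepsins, had 18.5, 18.9, 15.9 and 17.2 CPM in the control and 22.5, 19.6, 21.3 and 20.03 CPM in the knockout. The groups were close but separate. CTSH rose by 0.24 ± 0.07, a change that did not stand against both control sets pooled (-0.07, adjusted p 0.712). CTSL and CTSZ did not pass, with 0.09 and 0.03.

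Of the 14 tested hydrolases, 6 rose, 3 fell and 5 did not pass. The largest rise of all 40 genes was that of IDUA, α-L-iduronidase, which removes iduronic acid from dermatan and heparan sulfate. IDUA had 2.19, 1.70, 1.77 and 2.25 CPM in the control libraries and 6.89, 5.71, 5.82 and 6.10 CPM in the knockout libraries, from 28 to 37 and from 92 to 111 counts. All knockout libraries lay above all controls, a 3.09-fold rise (log2 fold change 1.63 ± 0.17, SE, adjusted p 1.94e-08). The control of this experiment was itself low in IDUA. The second control set had 4.52, 4.97, 4.15 and 4.37 CPM, and against both control sets pooled the rise was 0.92 ± 0.25 (adjusted p 0.0072). IDUA shares 13.3% of its exon bases with SLC26A1 on the opposite strand, and SLC26A1 rose by 1.00 as well (log2, adjusted p 0.00122). The use of strand in counting is not given in the sources used here, so reads from the shared bases cannot be assigned to one of them.

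IDS, iduronate-2-sulfatase, acts just before IDUA on the same sugars. Its level was 67.7, 69.0, 61.6 and 69.0 CPM in the control and 99.0, 103, 106 and 101 CPM in the knockout. The groups were far apart relative to their spread, with a log2 fold change of 0.62 ± 0.04 (SE, adjusted p 7.37e-12). IDS was also lower in this control set than in the second (-0.30 ± 0.04, log2, SE). Against both control sets pooled its rise was 0.46 (adjusted p 2.83e-05). FUCA1, a fucosidase of glycoproteins, had 18.6, 18.7, 19.4 and 21.7 CPM in the control and 26.2, 23.5, 29.4 and 24.5 CPM in the knockout. These groups did not overlap either (0.40 ± 0.08, log2, SE, adjusted p 0.000143), but against both control sets pooled the change was 0.22 and did not pass (adjusted p 0.0817).

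The glycolipid enzyme GLA, α-galactosidase A, rose by 0.30 ± 0.06 (log2, SE), the β-mannosidase MANBA by 0.25 ± 0.06 and the α-mannosidase MAN2B1 by 0.18 ± 0.05. The rises of MANBA and MAN2B1 did not pass against pooled controls, at 0.04 and 0.11. Hydrolases that fell were GLB1, the β-galactosidase, by 0.34 ± 0.05 (log2, SE), and GAA, which digests glycogen, by 0.34 ± 0.07. CTSA, cathepsin A, which is counted with the hydrolases here, fell by 0.30 ± 0.05. It is the protective protein that stabilizes β-galactosidase and neuraminidase. For GAA the groups overlapped, through control library 3. For MAN2B1 they overlapped as well, with 66.8 CPM in the lowest knockout library and 67.2 CPM in the highest control library. CTSA shares 17.7% of its exon bases with NEURL2 on the opposite strand, and NEURL2, at 18 to 33 counts, did not pass (-0.11). It shares 3.4% with PLTP, also on the opposite strand and at 675 to 940 counts, which fell by 0.21 (log2, adjusted p 0.01). The sulfatases ARSA and ARSB and the heparan sulfate enzymes SGSH and NAGLU did not pass, nor did HEXA, with log2 fold changes from -0.27 for ARSB to 0.12 for SGSH. ARSB did pass, still lower, with the replicate number as a block (-0.27), with only the libraries compared (-0.27), with no filter on low counts (-0.27), and without SLC30A10 control library 4 (-0.35) or SLC30A10 knockout library 4 (-0.33).

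Of the 6 lipid and saposin genes, 4 fell and 0 rose past the threshold. GRN, progranulin, which is cut into granulins in the lysosome, fell by 0.33 ± 0.06 (log2, SE). LIPA, the acid lipase for cholesteryl esters, fell by 0.25 ± 0.06, NPC2, the soluble cholesterol carrier, fell by 0.23 ± 0.06, and PSAP, the precursor of the saposins, fell by 0.21 ± 0.05. Against pooled controls PSAP did not pass, at -0.14 with an adjusted p of 0.0505. NPC1, the membrane partner of NPC2, had a log2 fold change of -0.06, and PPT1, a thioesterase that removes palmitate, had 0.02. Neither passed.

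The 2 LAMP genes, which encode the most abundant membrane glycoproteins of the lysosome, changed in opposite directions. LAMP1 had 168, 171, 194 and 168 CPM in the control and 111, 115, 119 and 121 CPM in the knockout. Every knockout library was lower, a fall of 0.59 ± 0.05 (log2, SE, adjusted p 5.38e-11). LAMP1 was also 0.31 ± 0.05 higher in this control set than in the second, and against pooled controls the log2 fold change was -0.44 (adjusted p 0.00014). LAMP2, a receptor of chaperone-mediated autophagy in one of its isoforms, had 100.5, 101, 104 and 101 CPM in the control and 128, 127, 139.6 and 134 CPM in the knockout. Here all knockout libraries were higher (0.38 ± 0.04, log2, SE, adjusted p 1.55e-08). SCARB2, the sorting receptor of glucocerebrosidase, MCOLN1, a calcium channel, and CLN3 did not pass, with 0.09, -0.13 and -0.11.

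Of the 5 proton pump genes, ATP6V0A1 and ATP6V0D1, subunits of the membrane-embedded V0 part, fell by 0.21 ± 0.05 and by 0.33 ± 0.08 (log2, SE). ATP6V1A, the catalytic subunit of the V1 part, was at 162 ± 2.90 against 161 ± 2.51 CPM (SD, n = 4), and ATP6V1H, a regulatory V1 subunit, had -0.07. Neither passed. ATP6AP1, an accessory protein of V0 assembly, rose by 0.19 ± 0.05.

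The 3 transcription factors each behaved differently. TFE3 had 48.5, 47.5, 51.8 and 46.7 CPM in the control and 68.2, 68.9, 71.5 and 67.7 CPM in the knockout. The groups were separate, with a rise of 0.51 ± 0.05 (log2, SE, adjusted p 1.01e-09). MITF had 7.49, 8.19, 7.25 and 9.08 CPM in the control and 4.91, 5.15, 5.09 and 5.72 CPM in the knockout. All knockout libraries were lower, with a log2 fold change of -0.62 ± 0.11 (SE, adjusted p 5.5e-05), and of -0.39 against pooled controls (adjusted p 0.0352). TFEB had 7.30, 6.55, 6.52 and 7.31 CPM in the control and 6.77, 6.15, 8.21 and 6.59 CPM in the knockout. These groups overlapped, and the log2 fold change was 0.00 ± 0.11 (SE, adjusted p 0.988).

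**Figure D2:**
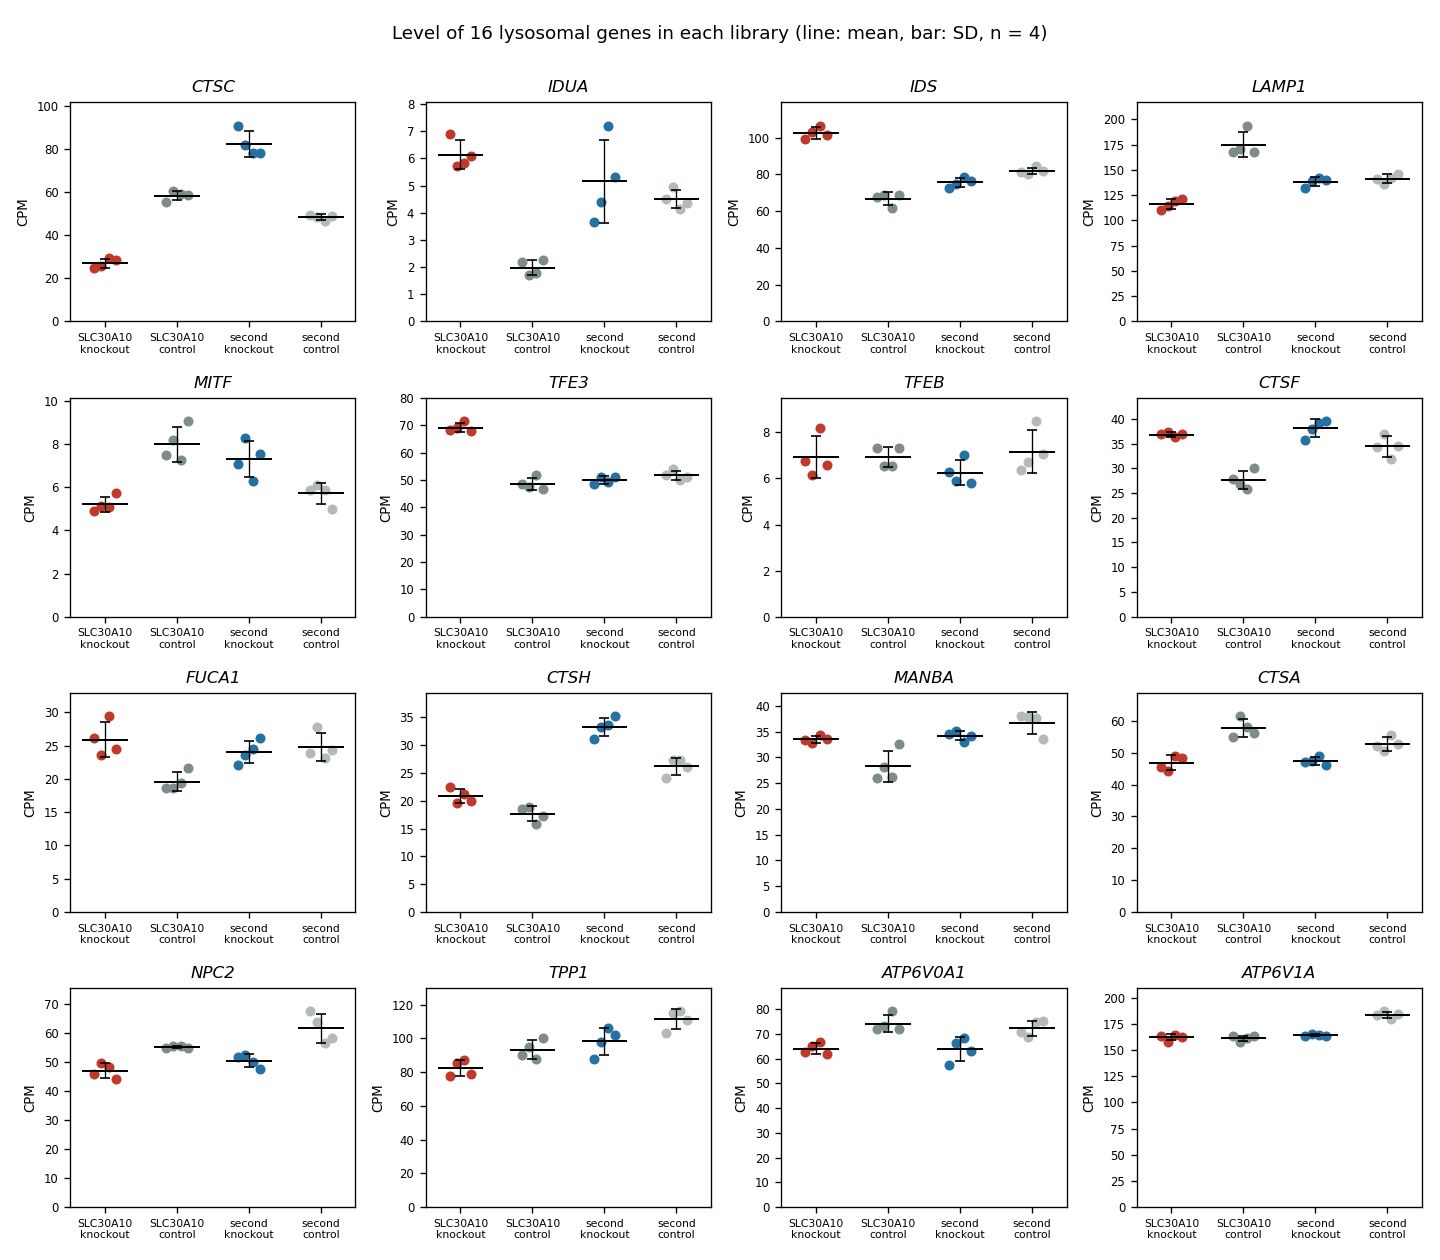
Level in CPM (vertical axis, from 0) of 16 genes in each of the 16 libraries, by group. Points are libraries, lines are means and bars are SD (n = 4). CTSC is low in all 4 SLC30A10 knockout libraries (24.7 to 29.3 CPM) and high in all 4 libraries of the second knockout (78.1 to 90.8 CPM).

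All 5 of the genes on the X chromosome, GLA, IDS, LAMP2, ATP6AP1 and TFE3, rose in the SLC30A10 knockout, by 0.19 to 0.62 on the log2 scale. Most other X-linked genes were higher too. Of 498 tested genes on X, 69.5% rose and 5.62% fell, with a median log2 fold change of 0.36. The 20 nearest tested genes had a median of 0.28 around LAMP2, 0.40 around ATP6AP1, 0.40 around IDS, 0.42 around GLA and 0.48 around TFE3. GLA and ATP6AP1 thus rose by less than the median of their neighbours, and IDS, LAMP2 and TFE3 by more. On the autosomes, 6 of 35 lysosomal genes rose (17.1%) and 14 fell, where 20.3% of 13657 autosomal genes rose and 21.4% fell. Among the autosomal genes of the set, the neighbour median farthest from 0 was 0.20, around HEXA. The part of the X chromosome in the rises of the X-linked genes was not tested.

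**Figure D3:**
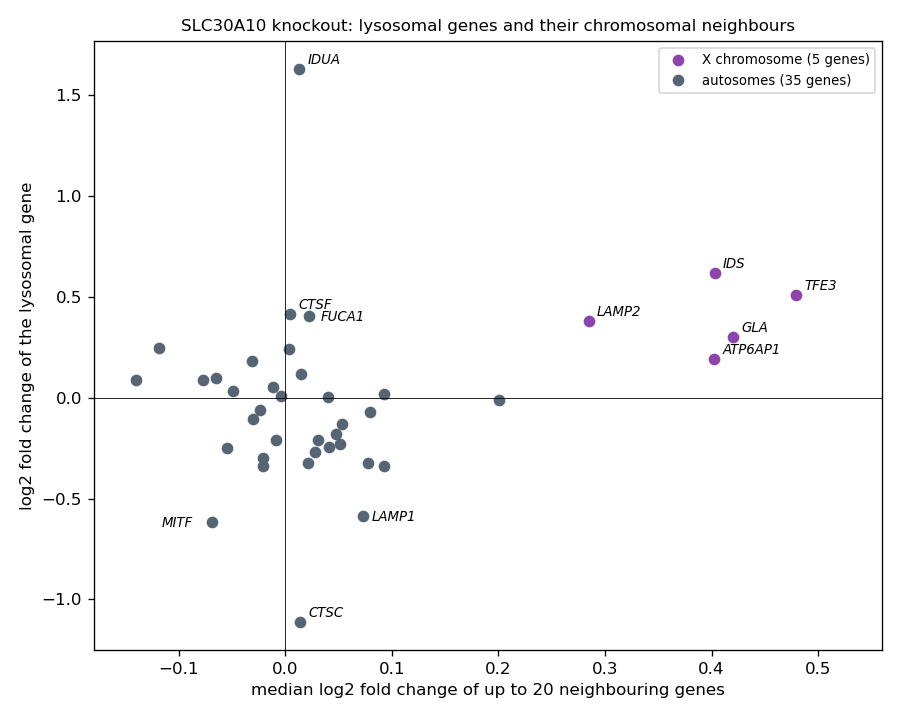
Log2 fold change of each lysosomal gene in the SLC30A10 knockout (vertical axis) against the median log2 fold change of up to 20 neighbouring tested genes (horizontal axis). The 5 X-linked genes (purple) lie to the right, with neighbour medians from 0.28 to 0.48. The 35 autosomal genes (grey) have neighbour medians from -0.14 to 0.20, with CTSC and IDUA near 0.

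The second knockout was then compared with its own control. Fewer genes passed, 8 of 40, against 13.7% of all tested genes (edgeR quasi-likelihood test, Benjamini-Hochberg). Of these, 3 were higher and 5 lower, where 6.67% of all tested genes were higher and 7.03% lower. CTSC alone changed by at least 1.5-fold, against 4.27% of all tested genes. Among genes with a mean count of at least 500, 6 of 27 were called, against 13.2% of all such genes. The median log2 fold change was -0.06, against 0.00 over all tested genes, and 29 of the 40 lay below 0. Groups did not overlap for 10 of the 40, against 16.3% of all tested genes. The count rested on small changes. It was 5 without second control library 3, 4 without second control library 4 and 5 without second knockout library 2, and 5 when only these 8 libraries were fitted.

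CTSC changed most, and upward. It had 49.6, 48.3, 46.5 and 49.2 CPM in the second control and 90.8, 82.0, 78.1 and 78.2 CPM in the second knockout. Every knockout library lay above every control library, a 1.70-fold rise (log2 fold change 0.76 ± 0.06, SE, adjusted p 2.53e-11). Across the 4 groups CTSC was lowest in the SLC30A10 knockout, followed by the second control, the SLC30A10 control and the second knockout, and the libraries of neighbouring groups in that order did not overlap. CTSH rose as well, from 24.0, 27.3, 27.3 and 26.0 CPM to 31.1, 33.3, 33.6 and 35.2 CPM. These groups were also separate (0.35 ± 0.06, log2, SE, adjusted p 0.000305), and the rise was 0.60 against pooled controls (adjusted p 0.00183).

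IDUA had 3.68, 4.41, 7.20 and 5.32 CPM in the second knockout, the widest spread of its 4 groups. These libraries overlapped those of the second control, and the change did not pass (0.20 ± 0.15, log2, SE, adjusted p 0.45).

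MITF had 5.87, 6.12, 5.90 and 4.98 CPM in the second control and 7.10, 8.27, 6.29 and 7.56 CPM in the second knockout. The groups did not overlap, although they came close, and the rise of 0.35 ± 0.11 (log2, SE, adjusted p 0.0294) did not pass against pooled controls (0.09, adjusted p 0.651), without second control library 4 (0.29), or without second knockout library 2 (0.29) or 4 (0.34). TFE3 and TFEB did not pass, with -0.05 and -0.19. For TFEB the levels were 6.36, 6.72, 8.49 and 7.04 CPM in the control and 6.29, 5.88, 7.02 and 5.81 CPM in the knockout, which overlapped. TFE3 had 51.7, 54.0, 49.98 and 51.2 CPM and 48.3, 51.2, 49.1 and 51.2 CPM, also overlapping.

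Of the 5 genes that fell, NPC2 fell most. It had 67.4, 63.8, 56.7 and 58.3 CPM in the second control and 51.6, 52.5, 49.98 and 47.5 CPM in the knockout. All knockout libraries were lower (log2 fold change -0.29 ± 0.05, SE, adjusted p 0.000363). The proton pump subunit ATP6V1A had 183, 187, 179 and 184 CPM and 164, 165, 165 and 164 CPM. The groups did not overlap, and the small fall of 0.16 ± 0.03 (log2, SE) passed (adjusted p 0.00125). The SLC30A10 control had 161 ± 2.51 CPM (SD, n = 4), close to the second knockout, and against pooled controls the fall did not pass (-0.07, adjusted p 0.296).

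ATP6V0A1 had 70.6, 68.7, 74.7 and 75.0 CPM in the second control and 57.4, 66.1, 68.5 and 63.0 CPM in the knockout. The groups did not overlap, with a fall of 0.18 ± 0.05 (log2, SE, adjusted p 0.0188) that did not pass without second control library 3 (-0.16) or 4 (-0.16) or without second knockout library 1 (-0.13). TPP1 had 103, 115, 116 and 111 CPM in the control and 87.6, 97.7, 106 and 102 CPM in the knockout. These overlapped, and the fall of 0.18 ± 0.06 (adjusted p 0.0288) did not pass against pooled controls (-0.06) or without second control library 2, 3 or 4 or second knockout library 1 or 2 (-0.18 to -0.12). CTSA had 52.3, 50.5, 55.6 and 52.9 CPM and 47.2, 47.3, 49.0 and 46.3 CPM. Its groups did not overlap, but the fall of 0.15 ± 0.05 (adjusted p 0.0384) did not pass with the replicate number as a block (-0.15). When the 8 libraries were left out in turn it passed only without second control library 2 or second knockout library 3. The settings named for each gene are not complete. Of the 8 calls of this knockout, 3 were lost with only the libraries compared and 2 with library totals alone. With no filter on low counts 1 was lost and 1 gained.

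Of the 5 X-linked genes, 0 passed in the second knockout, where their log2 fold changes lay between -0.13 and -0.05. Of all 498 tested X-linked genes, 7.03% rose and 10.0% fell there, with a median of -0.01.

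**Figure D4:**
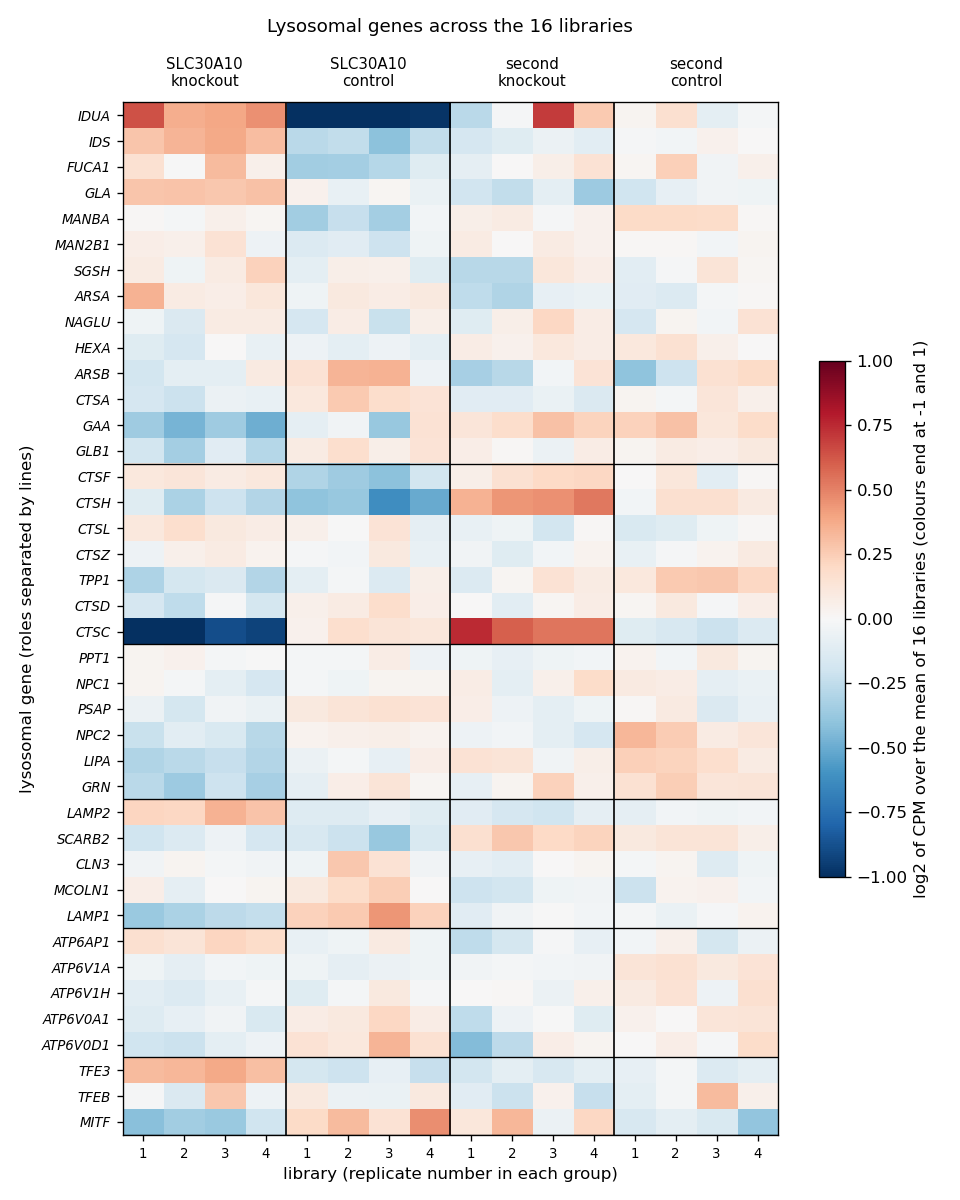
Level of the 40 tested genes (rows, by role) in the 16 libraries (columns, by group), as the log2 of CPM over the mean of the gene in all libraries, with colours that end at -1 and 1. The rows of CTSC, IDUA, IDS, LAMP1 and TFE3 change at group borders. The SLC30A10 control columns differ from the second control columns in IDUA and CTSH.

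Both knockouts called 7 of the 40 genes. Of these, 5 changed in the same direction: CTSH rose, and CTSA, TPP1, NPC2 and ATP6V0A1 fell. The other 2, CTSC and MITF, changed in opposite directions. Over all tested genes, 626 of 1217 genes called in both changed in the same direction. A further 18 lysosomal genes were called only in the SLC30A10 knockout, 1, ATP6V1A, only in the second, and 14 in neither. Over all 15569 tested genes these counts were 5233, 915 and 8204. The difference of the 2 effects, tested in the same fit, passed for 18 of 40 genes (45.0%), against 31.3% of all tested genes. It was largest for CTSC, at -1.88 ± 0.08 (log2, SE, adjusted p 4.97e-16), and then for IDUA (1.43 ± 0.23), MITF (-0.97 ± 0.15), IDS (0.73 ± 0.06), TFE3 (0.56 ± 0.07) and LAMP1 (-0.56 ± 0.06). For CTSH, CTSA, TPP1, NPC2 and ATP6V0A1 the difference did not pass, with values from -0.15 for CTSA to 0.06 for NPC2.

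The controls of the 2 experiments share an identifier and were compared in the same fit. Of 40 genes, 19 differed (47.5%), 5 higher and 14 lower in the SLC30A10 control, against 39.3% of all tested genes (18.5% higher and 20.8% lower). IDUA differed most, by -1.18 ± 0.18 (log2, SE, adjusted p 1.53e-05), then CTSH by -0.57 ± 0.07, MITF by 0.48 ± 0.11, MANBA by -0.38 ± 0.06 and FUCA1 by -0.34 ± 0.08. The MANBA libraries of the SLC30A10 control had 26.0, 28.2, 26.3 and 32.5 CPM. The gene had 38.0, 37.9, 37.6 and 33.5 CPM in the second control, 33.3, 32.8, 34.3 and 33.5 CPM in the SLC30A10 knockout and 34.6, 35.05, 33.0 and 34.1 CPM in the second knockout. Its SLC30A10 control was the low group, and the SLC30A10 knockout overlapped the second knockout. FUCA1 had 23.9, 27.8, 23.1 and 24.4 CPM in the second control and 22.1, 23.7, 24.5 and 26.1 CPM in the second knockout, so that here too the SLC30A10 control was the group that stood apart. CTSF was also lowest in the SLC30A10 control, at 27.6 ± 1.83 CPM (SD, n = 4), where the second control had 34.4 ± 2.10, the SLC30A10 knockout 36.8 ± 0.432 and the second knockout 38.1 ± 1.76 CPM. With both control sets pooled as the control, 20 of the 25 calls of the SLC30A10 knockout kept their direction and passed. The 5 lost were CTSH, FUCA1, MANBA, MAN2B1 and PSAP. Of the 8 calls of the second knockout 5 were kept, and 4 genes, CTSF, SCARB2, GLA and ATP6V0D1, were gained. Over all tested genes, pooling also gave fewer calls for the SLC30A10 knockout and more for the second. Whether lysosomal genes lost or gained calls more often than other genes was not tested.

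Levels per kilobase of exon, with lengths from GENCODE release 29, put PSAP first, at 68.4 CPM per kilobase as the mean of the 4 groups. It was followed by PPT1 (42.5), CTSZ (38.6), CTSD (36.5) and ATP6V1A (32.7). PPT1 shares 23.4% of its exon bases with CAP1 on the opposite strand, which had 4430 to 5233 counts, so its place is uncertain without the strand setting. LAMP1 and LAMP2 stood at 24.9 and 19.9. In the SLC30A10 control LAMP1 was above LAMP2 on this scale, 30.5 against 18.4, and in the knockout LAMP2 was above LAMP1, 23.9 against 20.3. The lowest measured were TFEB (1.21), IDUA (1.11) and MITF (0.914). TFE3, at 12.8, was the most abundant of its family. The annotation behind the deposited counts is not given in the sources used here, and other exon lengths would shift this order.

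Wider lists of lysosomal genes gave the context. Of 32 tested further lysosomal enzymes and cofactors, 6 rose and 15 fell in the SLC30A10 knockout, a share of 65.6% called, against 41.4% of all tested genes (21.2% higher and 20.2% lower). The genes with the smallest adjusted p lay among neighbours with medians away from 0. ASAH1, acid ceramidase, rose by 1.06 ± 0.04 (log2, SE) among chromosome 8 neighbours with a median of 1.01, and CTSB, cathepsin B, rose by 1.05 ± 0.04 with a neighbour median of 0.90. GALNS, a sulfatase of keratan sulfate, fell, with a log2 fold change of -1.20 ± 0.08, among chromosome 16 neighbours with a median of -0.54. Of 27 further membrane proteins, 4 rose and 5 fell (33.3%), among them the membrane protein LAPTM4A at 0.34 ± 0.04 and the chloride-proton exchanger CLCN7 at -0.34 ± 0.05.

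Over all tested genes 41.4% were called in the SLC30A10 knockout, 21.2% higher and 20.2% lower. Of 19 further proton pump subunits and assembly factors, 6 rose and 1 fell (36.8%). The leading rises were those of ATP6V1B2 (0.89 ± 0.04, chromosome 8, neighbour median 0.95), VMA21 (0.66 ± 0.04, X chromosome, 0.40) and ATP6AP2 (0.39 ± 0.04, X chromosome, 0.32). Of 15 genes of mannose 6-phosphate tagging and sorting, 2 rose and 5 fell (46.7%). AP1S2, a subunit of the AP-1 clathrin adaptor on X, rose by 0.67 ± 0.05, and IGF2R, the large mannose 6-phosphate receptor, fell by 0.35 ± 0.04. Of 24 genes of mTORC1 and TFEB control, 4 rose and 4 fell (33.3%), among them the paralogous Rag GTPases RRAGA (-0.38 ± 0.05) and X-linked RRAGB (0.54 ± 0.09).

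In the second knockout the shares called in these lists were 15.6%, 14.8%, 21.1%, 6.67% and 8.33% in the same order, against 13.7% of all tested genes. GM2A, the activator protein of ganglioside breakdown, fell by 0.24 ± 0.06 (log2, SE), but did not pass against pooled controls (-0.08, adjusted p 0.497). LITAF, a membrane protein of late endosomes, rose by 0.35 ± 0.05, or 0.60 against pooled controls. RRAGD, another Rag GTPase, fell by 0.27 ± 0.04, with a log2 fold change of -0.17 against pooled controls. CLCN7 rose by 0.21 ± 0.05 in this knockout, opposite to its fall in the other, but at 0.11 it did not pass against pooled controls. GM2A and RRAGD were opposite too, with rises of 0.22 ± 0.06 and 0.18 ± 0.04 in the SLC30A10 knockout. Those rises did not pass against pooled controls, at 0.04 and 0.08.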

How the data were processed

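The deposited table holds whole-number counts per gene symbol for 16 libraries. The submitters' processing notes name HISAT2, featureCounts and DESeq2 and the builds hg38 and GRCh38, without versions or roles. The annotation and the use of strand are not given in the sources used here. The gene deleted in the second knockout is not reported here.

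Tests on the deposited counts used edgeR (version 4.0.16, under R 4.3.3), with its expression filter set to counts of 10 and totals of 15. After TMM scaling all 16 libraries were fitted with a mean per group, and quasi-likelihood tests were adjusted by Benjamini-Hochberg over 15569 genes. CPM and log2 fold changes come from this fit, with SD or SE. The procedure was tested on simulated counts for the SLC30A10 comparison, with 50 genes changed at each fold. Of the tested genes, 60.0% of those changed 1.25-fold and 87.8% of those changed 1.5-fold were recovered. Among unchanged genes, 3 of 15291 were called. Far fewer genes were changed there than the 6450 of 15569 called in the data, and the adjustment depends on that share. These rates therefore need not hold for the data. Every replicate pair differed by more than sampling noise (chi-square per degree of freedom 1.64 to 6.83). The pairs were not alike. In the SLC30A10 control, pairs with library 3 had 4.11 to 6.77 and the other pairs 1.76 to 2.01. In the second control, libraries 1 and 2 had 2.08 and libraries 3 and 4 had 1.70, against 3.01 to 5.32 for the pairs across. Whether the libraries of a group are equally independent was not tested.

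Neighbours were the 10 tested genes on each side in RefSeq order (GRCh38.p14), which placed 90.9% of tested genes. Members and lists were chosen with earlier results of these data known. Every member could be named. Values in each library are given for the 8 largest called changes of each knockout, the 5 largest control differences and the TFEB family, plus LAMP2, added beside LAMP1 after its values were seen. From each wider list up to 3 genes with the smallest adjusted p per knockout were eligible. The alternatives were median-of-ratios factors, library totals, the DESeq2 1.42.0 Wald test, no filter, a mean count of at least 50, only the libraries compared, pooled controls, a replicate block and leaving out each library.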

Additional observations from a re-analysis of the deposited data

Results flagged for a closer look

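In 4 of 160 sets of 4 values (40 genes by 4 groups), the highest or lowest library exceeded the 95% critical value of Dixon's test for a gap to its nearest neighbour. Chance gives about 1 in 20, or 8 of 160. MANBA had 33.5 CPM in second control library 4, against 37.6 to 38.0 in the other 3. ARSA had 18.3 CPM in SLC30A10 knockout library 1, against 15.1 to 15.6. IDS had 61.6 CPM in SLC30A10 control library 3, against 67.7 to 69.0. LAMP1 had 194 CPM in that same control library, against 168 to 171, and its log2 fold change without that library was -0.54.

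The effects of the 2 knockouts differed by a test of the difference itself (edgeR quasi-likelihood, adjusted p under 0.05) for 18 genes. The SLC30A10 knockout minus the second knockout was positive on the log2 scale for IDUA (1.43), IDS (0.73), TFE3 (0.56), LAMP2 (0.48), FUCA1 (0.45), GLA (0.43), MANBA (0.35), CTSF (0.27), ATP6AP1 (0.27) and ATP6V1A (0.17). It was negative for CTSC (-1.88), MITF (-0.97), LAMP1 (-0.56), GAA (-0.33), GLB1 (-0.30), GRN (-0.23), PSAP (-0.21) and CTSD (-0.20). The difference did not pass for CTSD without second control library 3, second knockout library 4, SLC30A10 control library 3 or SLC30A10 knockout library 1 or 2 (-0.19 to -0.17). It did not pass for GRN without second control library 3 or 4, second knockout library 3, SLC30A10 control library 2 or 3 or SLC30A10 knockout library 2 or 4 (-0.22 to -0.17). Of the 10 positive genes, 5 are the X-linked ones. Since the control sets themselves differed at 19 of the 40 genes, a shift in a control set alone cannot be told apart from an effect of a deletion.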

How the results depend on the processing

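The count of called lysosomal genes in the SLC30A10 knockout (25) lay between 20, with pooled controls, and 26 under every alternative, and the count in the second knockout (8) between 4 and 10. The latter moved by more than 1.5 times when only the libraries compared were fitted (5) and without some single libraries (4 to 10 over all of these). The cause was not tested in either case. Over all tested genes the count for the SLC30A10 knockout was likewise lowest with pooled controls. The count over all tested genes for the second knockout also fell when only the libraries compared were fitted, but by less than 1.5 times. CTSH in the SLC30A10 knockout reversed with pooled controls, to -0.0703, since CTSH is lower in the SLC30A10 control than in the second control set. The difference of the effects gave 16 to 18 genes and the control comparison 16 to 21. Replicate numbers recur in the titles of all groups, but they were not taken to pair the libraries, since correlations of deviations between same-numbered libraries ranged across genes from -0.102 to 0.00989 in the SLC30A10 experiment and from -0.0497 to 0.175 in the second. With the replicate block, 26 lysosomal genes were called in the SLC30A10 knockout, 8 in the second, 18 for the difference and 20 between the controls. The block added ARSB in the SLC30A10 knockout (-0.27) and GRN between the controls (-0.13), and in the second knockout it added ATP6V0D1 (-0.21) and lost CTSA (-0.15). It changed no other call of a lysosomal gene. IDUA, at 28 to 119 counts, had the largest SE of the SLC30A10 comparison (0.17).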

Other observations

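The hydrolases summed to 597 ± 20.2 CPM (SD, n = 4) in the SLC30A10 knockout and 566 ± 19.4 CPM in its control, and to 601 ± 18.2 and 619 ± 7.89 CPM in the second experiment, knockout first. The membrane proteins were at 391 ± 13.4 and 417 ± 9.81 CPM in the SLC30A10 experiment and at 406 ± 7.85 and 407 ± 3.74 CPM in the second. The 7 proteases summed to 373 ± 13.7 CPM (SD, n = 4) in the SLC30A10 knockout and 419 ± 6.33 CPM in its control, and to 463 ± 11.8 CPM in the second knockout and 437 ± 12.0 CPM in its control. The lipid and saposin genes summed to 633 ± 10.1 CPM in the SLC30A10 knockout and 702 ± 17.4 CPM in its control, with 672 ± 8.39 and 706 ± 21.8 CPM in the second experiment. The proton pump subunits were at 461 ± 9.88 and 465 ± 16.4 CPM in the SLC30A10 experiment and at 438 ± 18.5 and 482 ± 14.1 CPM in the second, knockout first. The sum of the TFEB family, which is mostly TFE3, was 81.2 ± 2.37 CPM in the SLC30A10 knockout and 63.5 to 64.6 CPM as a mean in the other 3 groups. All 41 genes together gave 2537 ± 61.1 CPM in the SLC30A10 knockout and 2632 ± 41.6, 2643 ± 51.6 and 2716 ± 40.4 CPM in its control, the second knockout and the second control. These sums follow the most abundant members and were not tested, because the members were chosen with results known.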
